A study of Homo sapiens with 2 samples.

Results

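ISG15 is a small ubiquitin-like protein that cells attach to other proteins, and this account follows the genes that make, attach and remove it in U251 human glioma cells. The 6 genes were ISG15 itself, the activating (E1) enzyme gene UBA7, the conjugating (E2) enzyme gene UBE2L6, the HERC-type ligase genes HERC5 and HERC6, and the protease gene USP18. They were chosen by their role and with their values on these arrays already known, namely the difference between the miR-31 array and the control array, so their ratios are given as a description and not as a test. A probe set, the group of short probes that reads 1 transcript on the array, was taken if its platform symbol was exactly 1 of the 6 names. This gave 6 probe sets of 54675, covering 5 of the 6 genes. UBA7 had none: the 2 probe sets that name it also name another gene and were not used here.

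Both groups were U251 cells grown in DMEM with serum and carried a transfection. One was transfected with a control and the other with miR-31, a microRNA; the labels name no construct, dose, time or clone. Each group has 1 Affymetrix HG-U133 Plus 2.0 array, so all differences are between 2 RNA samples, no replicate spread exists, no p-value was computed, and an effect of miR-31 cannot be told apart from any other difference between the cultures. RefSeq (GRCh38.p14) lists 1 mature microRNA of the MIR31 gene, at chr9:21512158-21512178 on the minus strand. It is shown because it is the agent that separates the groups, with its seed (bases 2 to 8) in capitals, although the labels do not say which arm of the microRNA was supplied.
hsa-miR-31-5p: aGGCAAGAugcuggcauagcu

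ISGylation, the attachment of ISG15, runs like ubiquitination. UBA7 activates ISG15, UBE2L6 carries it, and HERC5, the main ISG15 ligase of human cells, joins it to lysines of target proteins, many of them newly made. USP18 cuts ISG15 off again, and apart from that activity it binds the interferon receptor chain IFNAR2 and dampens type I interferon signalling. All of these genes are classic targets of type I interferon, whose transcription factor complex ISGF3 binds the interferon-stimulated response element, or ISRE, in promoters. In human cells free ISG15 also stabilises USP18.

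The 5 measured genes lie at 4 places in the genome (GRCh38.p14, RefSeq). ISG15 is at chr1:1013497-1014540, UBE2L6 at chr11:57551662-57567935 and USP18 at chr22:18150170-18177397. HERC6 (chr4:88378852-88443097) and HERC5 (chr4:88457119-88506163) are neighbours, with 14022 bases between them. UBA7 is at chr3:49805209-49813953. The positions of the probes within the transcripts were not used here.

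Promoter windows of 300 bases, from 250 before to 50 after the gene's start, came from the RefSeq promoter table used here, which was matched for 4 of the 6 genes: ISG15, UBE2L6, HERC5 and HERC6. They were searched on both strands for the ISRE core GAAANNGAAA, in which N is any base. ISG15 held 2 matches and HERC5 held 3, while the window of HERC6 and both windows of UBE2L6 held none. Both stretches with matches are shown because 2 of the genes described here carry the element close to the start. They run from 150 to 51 bases before it, at chr1:1013347-1013446 and chr4:88456969-88457068, both on the plus strand, with the matching bases in capitals.
ISG15 promoter: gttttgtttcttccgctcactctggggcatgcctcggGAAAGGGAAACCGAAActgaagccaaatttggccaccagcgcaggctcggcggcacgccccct
HERC5 promoter: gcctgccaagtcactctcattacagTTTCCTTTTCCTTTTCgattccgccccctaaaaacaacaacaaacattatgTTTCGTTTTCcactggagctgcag

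In ISG15 the 2 matches overlap and span 113 to 98 bases before the start, on the plus strand. In HERC5 all 3 matches are on the minus strand, so they read as TTTC repeats here; 2 of them overlap, from 125 to 110 bases before the start, and the third lies from 74 to 65. Of all 35116 promoter windows, 3.57% held at least 1 match and 0.259% held 2 or more. A second interferon-related motif, the GAS element TTCNNNGAA, was found in 7.66% of windows and in none of the 5 windows of these genes. On these arrays the ISRE core was present in the windows of 48 of 346 genes that were at least 2-fold higher under miR-31 (13.9%), of 18 of 41 at least 4-fold higher (43.9%), of 330 of 9226 within 2-fold (3.58%) and of 3 of 141 at least 2-fold lower (2.13%). ISG15, UBE2L6, HERC5 and HERC6 are among those counted, and they were picked with this same contrast known. Why the shares differ was not tested. A match is a run of letters in this window, not a measured binding site.

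ISG15, UBE2L6, HERC5, HERC6 and USP18 were all higher in the miR-31 array, each by more than 2-fold, so the modifier, its carrier, both ligases and the protease that removes it differed in the same direction. Centred on the poly-A controls, bacterial RNAs spiked into each sample, HERC5 had 0.80, under 2-fold, and 4 of the 5 stayed past it. Intensities are linear values as deposited, and ratios are log2(intensity + 16) in the miR-31 array minus the same in the control; the added 16 understates changes of dim probe sets. The median log2 ratio of the 5 genes was 1.93, against 0.03 over the 11787 genes compared, which are those with a probe set at or above the median level (an intensity of 62.7). All 5 genes passed that level filter. Of all genes compared, 3.74% were at least 2-fold higher and 1.58% at least 2-fold lower. At least 4-fold higher were 2 of the 5, ISG15 and HERC6, and 0.509% of all genes. These shares stand beside the counts as background only, because the genes were picked with this contrast known.

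**Figure D1:**
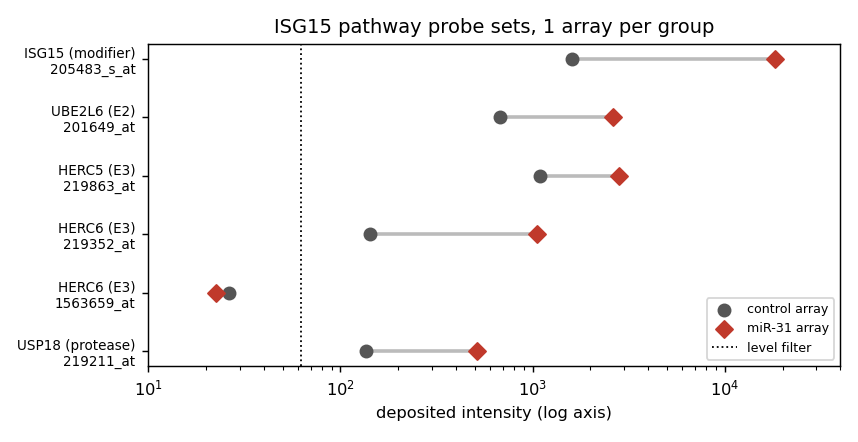
Deposited intensity (log axis) of each probe set on the control array (grey circles) and on the miR-31 array (red diamonds), 1 array per group, with the level filter of 62.7 as a dotted line. For 5 of the 6 probe sets the miR-31 value lies to the right of the control value; the second HERC6 probe set lies left of the filter on both arrays, at 26.4 and 22.6.

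ISG15, the modifier, was read by 1 probe set, which gave 1600.02 under control and 18161 under miR-31. That is a log2 ratio of 3.49, or 11.2-fold, the largest of the 5. It ranked 8 from the top among the 11787 genes. The probe set was brighter than 89.3% of all probe sets already in the control and than 99.3% in the miR-31 array, so the gene was well above the dim range on both. The genes compared were split by level into 4 equal bins. ISG15 lies in the brightest, where 1.26% of genes were at least 2-fold higher and the robust SD of ratios was 0.29.

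UBE2L6 encodes the E2 that takes ISG15 from UBA7. Its 1 probe set had 677 under control and 2632 under miR-31, a log2 ratio of 1.93 (3.82-fold). It ranked 67 from the top.

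HERC5 is the ligase that rides on ribosomes and modifies nascent proteins. Its probe set read 1098 under control and 2823 under miR-31, a log2 ratio of 1.35 (2.55-fold) and rank 187. Of the 4 genes with a promoter window HERC5 had the most ISRE matches, 3, and the lowest ratio. UBE2L6 and HERC5 both lie in the third level bin, where 59 of 2946 genes were at least 2-fold higher and the robust SD was 0.34.

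HERC6, the neighbour and close relative of HERC5, was read by 2 probe sets that gave different answers. The one above the level filter had 142 under control and 1053 under miR-31, a log2 ratio of 2.76 (6.76-fold) and rank 20. The other had 26.4 and 22.6 (-0.14). Both of its values are below the filter, where signal cannot be separated from background because no detection calls were used. HERC6 is the main ISG15 ligase of mice, while in human cells HERC5 has that role.

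USP18, the protease, had 136 under control and 516 under miR-31, a log2 ratio of 1.81 (3.51-fold) and rank 89. Related sequences of USP18 lie elsewhere on chromosome 22, and the single probe set may read more than 1 of them. HERC6 and USP18 lie in the second level bin, where 4.41% of genes were at least 2-fold higher and the robust SD was 0.43. Their control intensities, 142 and 136, are the lowest of the 5, so their ratios depend most on the pseudocount: from 2.44 to 2.88 for HERC6 and from 1.54 to 1.92 for USP18 with 64 and with 1 in place of 16.

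**Figure D2:**
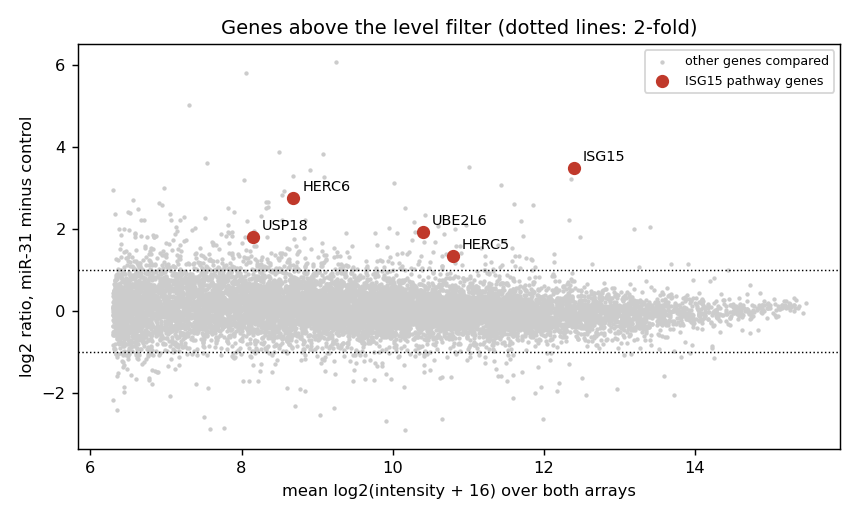
Log2 ratio (miR-31 minus control) against the mean log2(intensity + 16) of both arrays for the 11787 genes compared (grey) and the 5 ISG15 pathway genes (red), with dotted lines at 2-fold. All 5 red points lie above the upper line, from 1.35 for HERC5 to 3.49 for ISG15, and they are spread over levels from USP18, the dimmest, to ISG15, the brightest.

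In order of ratio the genes were ISG15, HERC6, UBE2L6, USP18 and HERC5. Noise was gauged from 3142 genes read by exactly 2 probe sets above the filter, which gave an SD of 0.334 per log2 ratio and so of 0.472 for a difference between 2 ratios. This gauge holds only how far probe sets of 1 gene disagree, and nothing of how cultures vary. ISG15 and HERC6 differed by 0.74 and HERC6 and UBE2L6 by 0.82, both more than 1 such SD. UBE2L6 and USP18 differed by 0.12 and USP18 and HERC5 by 0.46, less than 1 SD, so neither pair has a clear order, while UBE2L6 and HERC5, the ends of that lower group, differed by 0.58. The modifier itself was thus further above its control than the enzymes UBE2L6, HERC5 and USP18 were above theirs. Intensities of different probe sets are not comparable, so no ratio of modifier to enzyme was formed.

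The lists of relatives of these enzymes in the wider ubiquitin-like system were also chosen with earlier results of these data known. The relatives were measured on the same arrays. Of those above the level filter, none reached 2-fold in either direction on the deposited scale; with the poly-A controls set to 0, 6 were at least 2-fold lower, and without probe sets named _s_at or _x_at 1, SAE1 (1.06), was at least 2-fold higher. Below the filter 1 relative passed 2-fold, the HECT-domain ligase gene HECW2, at -1.22 from dim values of 39.4 and 7.79, named here after its value was seen. Of 107 other modifiers, E1s, E2s, HECT-domain ligases and USP-family proteases compared, 0 were at least 2-fold higher and 0 at least 2-fold lower, with a median log2 ratio of -0.01 and a range from -0.71 to 0.69. The highest of them lay below HERC5, the lowest of the ISG15 genes, at 1.35. Under the 9 alternative settings of scale, pseudocount and probe set, 0 of these relatives reached the ratio of the lowest ISG15 gene measured in that setting. Because the ISG15 genes were picked with this contrast known, the gap between them and the relatives is a description and not a test.

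By role, 11 other modifiers ran from -0.41 to 0.39, with NEDD8, which is attached to cullins, at 0.39 and URM1 at -0.41 (0.53 on its other probe set). GABARAPL1, an ATG8-family autophagy protein, had 0.36 and GABARAP 0.25. The 7 other E1s ran from -0.18 to 0.62. UBA1, the principal ubiquitin E1, had 1453 under control and 1514 under miR-31 (0.06, and -0.10 on its other probe set). MOCS3, the E1-like activator of URM1, had 0.62 from a control intensity of 113, UBA3, a subunit of the NEDD8 E1, had 0.35, ATG7 0.14 (4 probe sets between -0.48 and 0.14) and the SUMO E1 subunit SAE1 -0.18, with its 3 probe sets between -0.34 and 1.06.

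The 28 other E2s had a median of -0.14. UBE2C, the mitotic E2 of the anaphase-promoting complex, was lowest at -0.71, UBE2T had -0.34, ATG10 -0.34 (3 probe sets between -0.87 and 0.34) and UBE2E2 0.41. Among 22 other HECT-domain ligases the median was 0.06. Of the relatives of HERC5 and HERC6, HERC3 had no value here. HERC1 had -0.07 and HERC2 -0.02, both named after their values were seen. HERC4 had 1604 under control and 1526 under miR-31 (-0.07, with 3 probe sets between -0.07 and 0.11). SMURF2, a ligase for TGF-beta signalling proteins, had -0.61, with 4 probe sets between -0.61 and 0.02, NEDD4 -0.51, UBE3B 0.53 and WWP1 0.50. The 39 other USP proteases had a median of -0.02, with USP30, a mitochondrial protease, at 0.69, USP53 at -0.60, USP12 at -0.55 (0.22 on its other probe set) and USP7 at -0.53.

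The other complete conjugation systems likewise had 0 members at 2-fold on the deposited scale, apart from SAE1 in the alternative just given and 1 SUMO and 1 UFM1 gene, SENP3 (-1.01) and DDRGK1 (-1.06), when centred on the poly-A controls. The SUMO system had a median of 0.06 over 11 genes, with PIAS3 at 0.56, SENP3 at -0.46 (0.18 on its other probe set), PIAS4 at -0.41 (0.10) and SENP1 at 0.39. The NEDD8 system had 0.06 over 9 genes, with the removal enzymes SENP8 at -0.39, but 0.54 on its other probe set, and COPS5 at -0.30. The UFM1 system had 0.00 over 6, with DDRGK1 at -0.51, UFSP2 at 0.47, UFSP1 at -0.39 and UFC1 at 0.27. Of the FAT10 system UBA6 (-0.12, with 5 probe sets between -0.12 and 0.42) and UBE2Z (0.13, with 3 between -0.81 and 0.26) were compared.

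**Figure D3:**
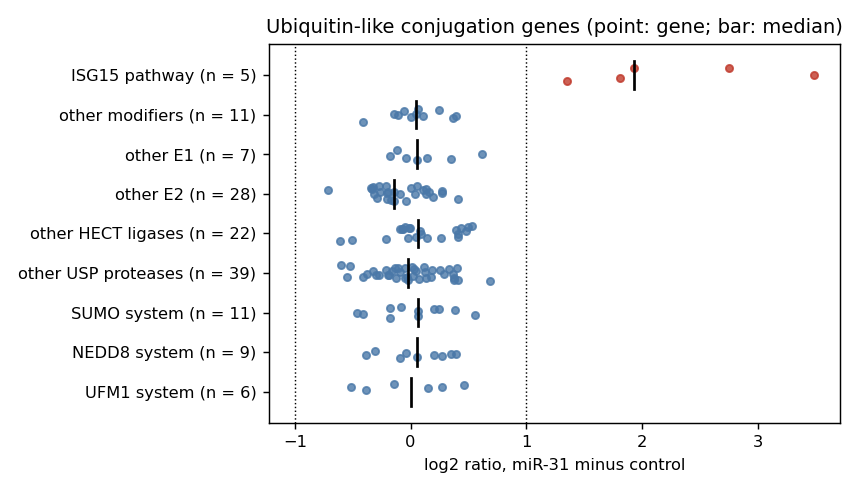
Log2 ratio (miR-31 minus control) of each gene above the level filter, by list; points are genes, black bars are medians and dotted lines mark 2-fold. The 5 ISG15 pathway genes (red) lie between 1.35 and 3.49, and every gene of the other lists drawn lies between -0.71 and 0.69; SUMO, NEDD8 and UFM1 genes also appear under their enzyme class.

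Other proteins reported to ligate or cleave ISG15 were mostly near the median of all genes. Of 7 compared, 0 reached 2-fold, and their median was 0.03. TRIM25, an interferon-inducible ligase that has been reported to attach ISG15 and is better known for activating RIG-I, had 866 under control and 1640 under miR-31 (0.91), but 0.13 on its other probe set. ARIH1, another reported ISG15 ligase, had 0.14, with 6 probe sets between -0.003 and 0.66. The proteases USP5 and USP21, reported to accept ISG15 in vitro, had -0.21 and 0.13. ITGAL and ITGB2, listed as genes of a reported ISG15 receptor, were below the level filter and not among the 7. ITGAL read 57.3 under control and 36.6 under miR-31 (-0.48). ITGB2 read 11.8 and 53.0 (1.31), past 2-fold but from dim values.

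Of the interferon receptor and signalling chain, 7 of 10 listed genes were compared. IRF9, the DNA-binding subunit of ISGF3, had 475 under control and 1979 under miR-31, a log2 ratio of 2.02 that falls between HERC6 and UBE2L6. It was the only 1 of the 7 at 2-fold. IRF1 had 0.75 (0.55 on its other probe set). The receptor chain IFNAR2, to which USP18 binds, had 0.31, with 3 probe sets between -0.63 and 0.31, the kinase JAK1 had 0.25 (4 probe sets between -0.04 and 0.61) and TYK2 -0.07. The interferon genes themselves were dim: 18 of 21 listed had a probe set, 0 passed the level filter, and their intensities lay between 1.42 and 50.6 in the control and between 0.827 and 47.5 in the miR-31 array. IFNB1, interferon beta, read 1.88 on both.

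Among 12 reported substrates of ISG15 compared, 3 were at least 2-fold higher and 0 lower, and the median was 0.17. Over all genes compared, 3.74% were at least 2-fold higher and 1.58% at least 2-fold lower. Centred on the poly-A controls, EIF2AK2 (0.79) drops out of the 3 and PPM1B (-1.01) becomes 2-fold lower. The 3 are themselves interferon-induced: MX1, an antiviral GTPase, with 19.4 and 1977 (5.82), RIGI, the RNA sensor, with 336 and 3058 (3.12, its 3 probe sets between 0.03 and 3.12), and EIF2AK2, the kinase PKR, with 2036 and 5176 (1.34, between 0.89 and 1.34). The control value of MX1 is below 62.7, so its ratio rests on the pseudocount, and it passed the level filter only through its miR-31 value. PPM1B, a phosphatase, had -0.46 and 0.12 on its other probe set. Protein conjugates were not measured.

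The genes nearest in pattern were sought by the distance between pairs of log2 levels on the 2 arrays, over 2 points each; the level part of that distance depends on each gene's probes. Nearest to ISG15 was IFIT1 (1704 and 16109, ratio 3.23, distance 0.195), then IFI6 (2.24). Nearest to HERC6 were DDX60 (2.92) and KRT15 (2.82), to UBE2L6 SP110 (1.93) and TRIM14 (1.68), and to HERC5 TAP1 (1.39) and GDF15 (1.16). For USP18 they were TSHZ2 (1.96) and BTC (1.81).

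The genes next to the measured ISG15 pathway genes were mostly within 2-fold. Over all 6 loci, 10 neighbouring genes had a probe set of their own symbol, and 6 of them passed the level filter. Of those 6, 1 was at least 2-fold higher and 0 lower, and their median was -0.06. That median includes INKA1 and TRAIP, which flank UBA7, a gene with no value here. The others above the filter ran from -0.31 for HES4 to 1.21 for NAP1L5. ISG15 lies between HES4 (-0.31) and AGRN, which had 0.78 on its brightest probe set and between 0.28 and 1.505 over its 4 probe sets. Before HERC6, PPM1K had 0.19, with 5 probe sets between -0.09 and 0.64. After HERC5 the next gene with such a probe set, 189750 bases on, was NAP1L5, with 627 under control and 1471 under miR-31 (1.21, and 0.92 on its other probe set); centred on the poly-A controls it had 0.66. The neighbours of UBE2L6 and of USP18 were all below the filter: SMTNL1 read 10.9 and 36.9, SERPING1 39.4 and 40.3, TUBA8 24.2 and 45.5, and PRODH 19.4 and 19.9. Beside UBA7, INKA1 had -0.34 and TRAIP -0.74.

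**Figure D4:**
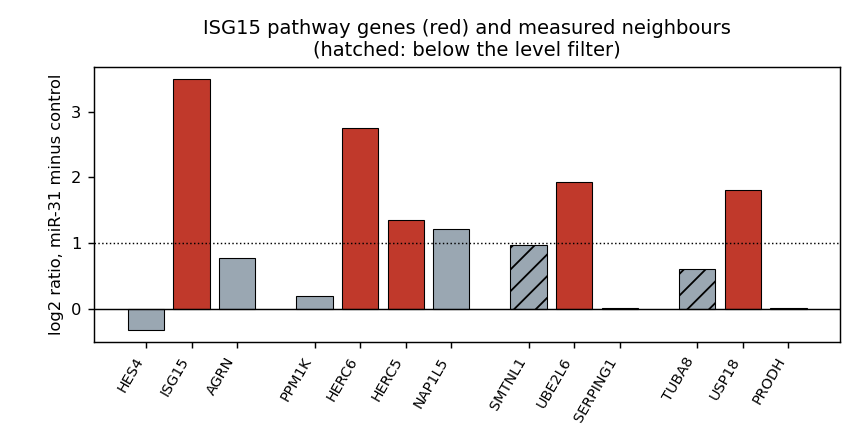
Log2 ratio (miR-31 minus control) of ISG15 pathway genes (red) and of the nearest measured gene on each side (grey), in chromosome order at 4 loci; hatched bars are below the level filter and the dotted line marks 2-fold. Each red bar is taller than the bars of the neighbours that are not red; NAP1L5, at 1.21, comes closest to its red neighbour HERC5, at 1.35.

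The scale of an array touches every ratio by the same amount. Spike-in controls were higher in the miR-31 array, with median log2 ratios of 0.55 over 24 poly-A probe sets and 0.19 over 18 hybridisation probe sets. Centred on the poly-A controls, the 4 genes other than HERC5 ran from 1.26 for USP18 to 2.94 for ISG15. With the same centring, small values given above between 0 and 0.55 lie below 0, and the median of all genes is -0.52.

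**Figure D5:**
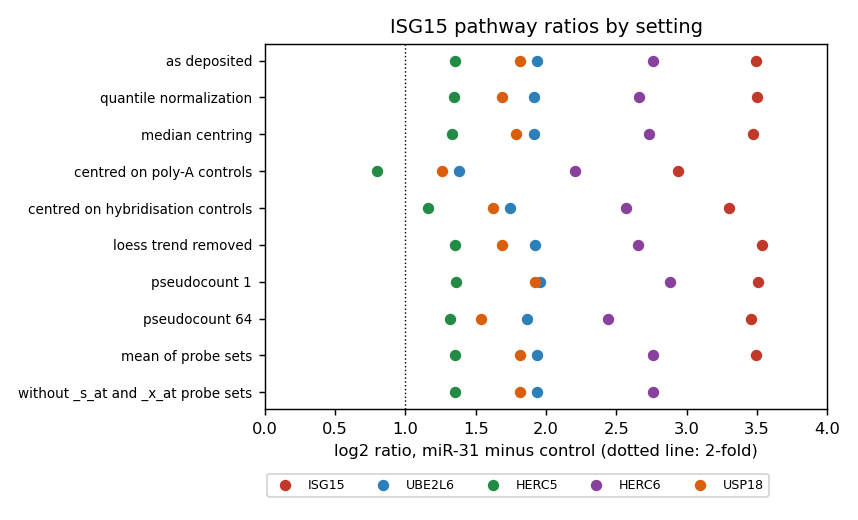
Log2 ratio (miR-31 minus control) of each ISG15 pathway gene under each processing setting, with a dotted line at 2-fold. All points lie above 0, only HERC5 centred on the poly-A controls (0.80) lies left of the line, and ISG15 is missing in the last row because its 1 probe set is named _s_at.

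Of the astroglial and glioma markers 7 of 8 passed the filter, while S100B was below it on both arrays. GFAP had 2007 and 3624 (0.85, and 1.03 on its other probe set above the filter). VIM had 29992 and 34112 (0.19, and 0.68 on its other probe set). NES had -0.91 but 0.03 on its other probe set. SOX9 had -0.56 and FABP7 -0.52, with -0.64 and -0.78 on their other probe sets above the filter. Markers of microglia, macrophages and lymphoid cells were dim: 3 of the 21 with a probe set passed the filter (CSF1R 0.35, ITGAM -0.25, CD79A 0.51), 0 of these reached 2-fold, and none was at 0. Their summed intensity was 704 under control and 928 under miR-31. At any level 4 were at least 2-fold higher and 2 lower; their part in the ISG15 pathway ratios was not tested. The 3' to 5' intensity ratios of the array's quality probes were 0.95 and 1.01 for GAPDH and 2.39 and 2.17 for ACTB, under control and miR-31.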

How the data were processed

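Biotin-labelled total RNA was hybridised, per the labels' protocols, and the authors deposited a linear intensity for every probe set on either array; which software made it is not given in the sources. Means without the lowest and highest 2% were 500.1 on both arrays. Values became log2(intensity + 16). Of 54675 probe sets, 41097 had 1 gene symbol in the platform annotation, 1801 several and 11777 none; 41043 matched RefSeq by Entrez identifier, and 62 control probe sets were left out. The brightest probe set above the median level stood for a gene. With 1 array per group, the number of arrays limits precision and no test was run. The 6 genes and all lists were chosen with earlier results of these data known. Named from each of the 15 other lists were the 4 genes with the largest absolute ratio, a few relatives fixed by name, the 2 nearest patterns and the genome neighbours. Of the relatives fixed by name, HERC3, UBE2L3 and USP41 had no value here. HERC1, HERC2, HECW2, TYK2, VIM, S100B and IFNB1 were added after their values were seen. So were ITGAL, ITGB2 and the interferon and immune marker genes named at any level. The calculation was tested on simulated data. Alternatives were quantile normalization, centring on the median or on spike-in controls, loess (span 0.3), pseudocounts of 1 and 64, other probe set choices, other level filters and 1.5-fold; their use on the relatives was added after seeing the data. Python 3.11.15, numpy 2.4.6, pandas 2.3.3, statsmodels 0.14.6 and matplotlib 3.10.9 were used.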

Additional observations from a re-analysis of the deposited data

How the results depend on the processing

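No paired analysis was possible because a single array stands for each transfection; leaving one out was likewise not possible. Over 44 values of the 5 ISG15 pathway genes under the alternatives, 0 lay below 0 and 1 lay under 2-fold; 5 moved by more than 0.334, the SD of a probe set's ratio, all by centring on the poly-A controls, which subtracts 0.55 from every gene. Under it ISG15 had 2.94, HERC6 2.21, UBE2L6 1.38, USP18 1.26, HERC5 0.80 and their median 1.38. Without _s_at and _x_at probe sets ISG15 has no value. Genes at least 2-fold higher, 441, became 124 centred on poly-A and 266 on hybridisation controls, 283 with a pseudocount of 64, 1184 without a level filter, 269 with a stricter one and 1376 at 1.5-fold. Genes at least 2-fold lower, 186, became 1279 and 367 with those centrings, 1002 and 123 with those filters and 793 at 1.5-fold. The share of higher genes among those past 2-fold was 70.3%, and 57.3% after quantile normalization, 59.0% after loess, 54.2% without a level filter, 42.0% and 8.84% centred on hybridisation and poly-A controls. Among 107 relatives in the ubiquitin-like system the counts past 2-fold, 0 and 0, changed in 2 of 9 settings: 6 were lower centred on poly-A controls and 1 higher without _s_at and _x_at probe sets.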
